A study of Mus musculus with 11 samples.

Results

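The MYC, MAX and MXD network was followed in mouse T cells through 9 genes, Myc, Max, Mxd1, Mxd3, Mxd4, Mxi1, Mnt, Mlx and Mlxip. Members were all probe sets (the sets of short array probes read out as a single value) whose platform annotation gives exactly 1 gene symbol, that of a listed gene. The rule found all 9 genes, among 18194 measured, through 19 of 34958 probe sets with 1 symbol; Myc, Max and Mlxip had 1 probe set each and the other 6 genes had several. Total RNA came from splenic T cells of female C57BL6 mice aged 3 to 4 months, isolated by negative magnetic bead selection and placed in complete RPMI-10 medium. The 4 groups, with 1 array per sample, were wild-type naive cells (n = 3), crbn-/- naive cells (n = 3), wild-type cells activated for 12 hours with plate-bound anti-CD3 at 5 µg/ml and soluble anti-CD28 at 1 µg/ml (n = 2), and crbn-/- cells activated in the same way (n = 3). The crbn-/- animals, called knockout here, are labelled as lacking cereblon, which selects substrates for a ubiquitin ligase built on CUL4. The labels name no cell type to which the deletion is limited. By their titles the samples of a group are biological replicates, and nothing says that same-numbered samples share an animal. The labels list no group cultured for the same time without stimulation, so stimulation and culture cannot be told apart.

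MYC is a transcription factor of the basic helix-loop-helix leucine zipper class that activates genes for growth after pairing with MAX, and it is induced by antigen receptor signals in T cells. The MXD proteins (MXD1, MXI1, MXD3 and MXD4) and MNT also pair with MAX, bind the same DNA element and repress through the SIN3 corepressor, and several of them are characteristic of resting or differentiated cells. MLX pairs with the nutrient-sensing factor MondoA, the product of Mlxip, and thereby links the network to glucose metabolism. The element bound by these pairs is the E-box, in its canonical form CACGTG, which reads the same on both strands.

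Levels are log2 RMA values, in which 1 unit is a doubling, and differences are log2 differences between group means. Each gene was read by its probe set of highest mean level, unless another probe set is named. A gene is said to have risen or fallen where the Benjamini-Hochberg adjusted p of limma, over all 18194 genes, was under 0.05. Signals of different probe sets are not comparable as amounts of RNA, so levels were compared within a probe set only. Crbn stood at 10.12 in wild-type naive and 8.99 in knockout naive cells, and at 9.59 and 8.68 in activated cells, and in each state the knockout arrays were all lower than the wild-type ones. This probe set thus kept signal in the knockout, and since the labels do not say which part of Crbn was deleted, it is not known whether its probes lie within that part. Column medians lay between 5.84 and 5.89, correlations across genes between arrays of a group were 0.994 to 0.998. Precision is limited by how few arrays there were. Of T cell markers, Cd3d lay between 12.91 and 12.98 in naive and between 12.13 and 12.39 in activated arrays. Some markers of other cells gave signal in the same naive arrays. Ighm, of B cells, lay between 13.39 and 13.68, and Jchain, of plasma cells, between 11.92 and 12.39. Car1, of erythroid cells, lay between 7.27 and 11.13. The same marker lists also hold dimmer genes. Pax5, of B cells, lay between 5.21 and 5.65 in the naive arrays, and Sdc1, of plasma cells, between 6.44 and 6.85. Epb42, of erythroid cells, lay between 5.09 and 5.65.

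The promoters of the network genes themselves are shown where they hold the element that the network binds. RefSeq promoter windows (build GRCm38.p6) of 300 bases, from 250 before to 50 after a start, were at hand for 8 of the 9 genes, Myc having no entry. CACGTG was found for 4 of these 8 genes, Max, Mxd4, Mnt and Mlx, and for 8.09% of all genes with a window. Counted by window, it was in 4 of 10, and in 7.15% of all 32851 windows. None of the windows of Mxd1, Mxd3, Mxi1 (3 windows) and Mlxip holds these letters. Each line gives the 46 bases around the element, 5′ to 3′ on the gene's strand, with the element in capitals.
Max, chr12:76962226-76962271, minus strand, element from base -3 to base 3 around the start: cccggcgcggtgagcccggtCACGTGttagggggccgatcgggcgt
Mxd4, chr5:34187904-34187949, minus strand, base -219 to -214: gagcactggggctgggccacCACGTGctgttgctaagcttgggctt
Mnt, chr11:74830781-74830826, plus strand, base -123 to -118: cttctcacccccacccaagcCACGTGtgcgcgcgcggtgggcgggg
Mlx, chr11:101087230-101087275, plus strand, base -40 to -35: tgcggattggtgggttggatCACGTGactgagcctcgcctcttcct
Only these exact 6 letters were searched for, so the element is alike in the 4 windows by choice, and its distance from the start differs. Whether any of these factors binds there was not measured. The whole window of Mxd4, the member that fell furthest on activation, is given with the element in capitals.
Mxd4, chr5:34187661-34187960, minus strand: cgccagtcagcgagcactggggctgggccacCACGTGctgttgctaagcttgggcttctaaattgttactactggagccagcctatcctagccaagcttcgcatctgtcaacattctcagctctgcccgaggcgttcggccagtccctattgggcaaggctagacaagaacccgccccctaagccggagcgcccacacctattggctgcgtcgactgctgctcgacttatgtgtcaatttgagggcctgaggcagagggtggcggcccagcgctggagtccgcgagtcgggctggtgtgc

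Activation was examined for what it did to each member in both genotypes. Myc, the activator, rose more than 4-fold, while its partner Max did not pass. Among the repressors, Mxd4 fell 3.73-fold in wild-type and 5.06-fold in knockout cells and Mxi1 fell 1.56-fold and 1.76-fold. Mxd1 and the brightest probe set of Mxd3 did not pass. The MondoA gene Mlxip fell 1.43-fold and 1.34-fold, and Mlx did not pass. In all 1 member rose and 3 fell in wild-type cells, 4 of 9, where 41.1% of all genes passed in limma, and 1 rose and 4 fell in knockout cells, 5 of 9, where 43.2% passed. The share of members that passed is thus near that of all genes. Arrays of both states did not overlap for 5 of 9 members in wild-type cells, where this held for 57% of genes, and for 7 of 9 in knockout cells, where it held for 52.5%. The largest changes were those of Myc and Mxd4. Myc had rank 79 of 18194 among the largest rises in wild-type and 122 in knockout cells, and Mxd4 had rank 226 and 132 among the largest falls.

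**Figure D1:**
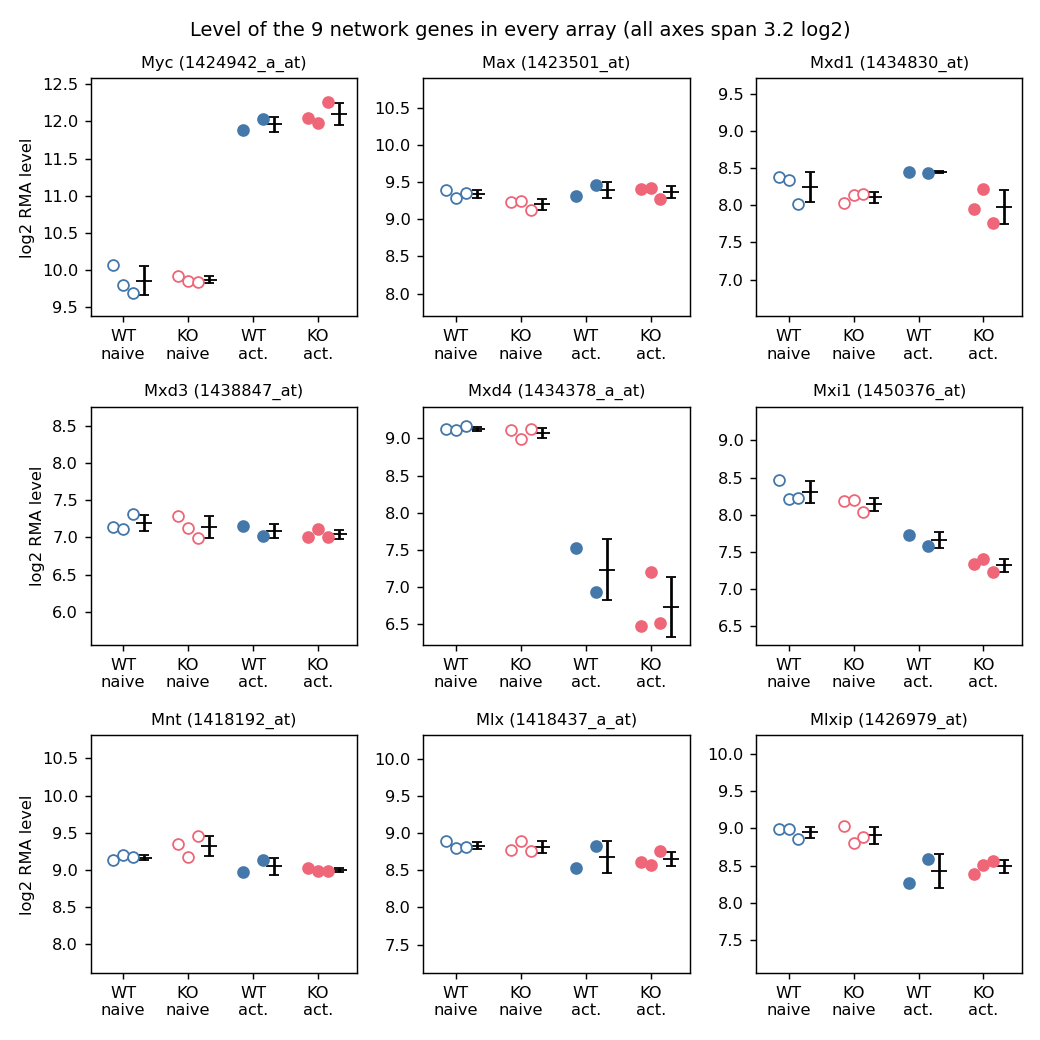
Log2 RMA level (vertical axis) of each of the 9 genes, by its brightest probe set, in the 11 arrays of the 4 groups; open circles are naive and filled circles activated arrays, blue is wild type (WT) and red knockout (KO), and the black bar is the mean with 1 SD. Myc lies between 9.69 and 10.07 in naive and between 11.89 and 12.26 in activated arrays, and Mxd4 between 8.99 and 9.16 and between 6.48 and 7.53.

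The Myc levels were 10.07, 9.80 and 9.69 in wild-type naive, 9.93, 9.86 and 9.84 in knockout naive, 11.89 and 12.03 in wild-type activated, and 12.05, 11.97 and 12.26 in knockout activated arrays. All activated arrays lay above all naive arrays, with a gap far wider than the spread within any group. The rise was 2.10 log2 in wild-type cells (SE 0.11, limma adjusted p = 2.2e-08) and 2.22 in knockout cells (SE 0.10, limma adjusted p = 2.3e-09), which is 4.30-fold and 4.66-fold. Ordered by group mean, knockout activated (12.10 ± 0.15, SD, n = 3) stood first, then wild-type activated (11.96 ± 0.10, SD, n = 2), knockout naive (9.87 ± 0.05, SD, n = 3) and wild-type naive (9.86 ± 0.19, SD, n = 3), and neighbours of the same state did not differ beyond their spread. Within each naive group the arrays of higher Myc were also those of higher erythroid marker level: the mean over 6 of 7 erythroid markers was 9.23, 8.38 and 7.45 in wild-type naive arrays, and 7.93, 6.75 and 6.38 in those of the knockout, in the order of the Myc levels given above. The proliferation list, 11 of 12 genes measured, ran in step, at 9.72, 9.24 and 9.04 and at 9.06, 8.65 and 8.34. Between the naive groups this order did not hold. Wild-type replicate 3 had higher means of both lists than knockout replicate 3, but lower Myc, 9.69 against 9.84. The part of either in the naive Myc level was not tested. Without the pair of naive arrays numbered 1, a setting chosen after seeing the data, Myc rose by 2.21 in wild-type and 2.25 in knockout cells and passed in both. In bulk RNA, fewer cells of a type and less RNA per cell cannot be told apart.

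The Max levels ran from 9.28 to 9.39 in wild-type naive, from 9.12 to 9.25 in knockout naive, from 9.31 to 9.47 in wild-type activated and from 9.28 to 9.42 in knockout activated arrays. Its change was 0.05 in wild-type cells (95% interval -0.13 to 0.23, limma adjusted p = 0.677) and 0.17 in knockout cells (0.01 to 0.33, limma adjusted p = 0.089). Knockout activated arrays lay just above knockout naive ones without overlap, as 24.5% of all genes did in that direction. MAX is the partner shared by MYC and its antagonists, and the size of its RNA change is bounded by these intervals.

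Mxd4 encodes an MXD repressor linked with quiescent cells. Its levels were 9.12, 9.11 and 9.16 in wild-type naive and 9.11, 8.99 and 9.12 in knockout naive arrays. After activation they were 7.53 and 6.94 in wild-type arrays, against 6.48, 7.20 and 6.52 in those of the knockout. Naive arrays lay close together, and activated arrays were all lower but spread over more than 1 log2, with wild-type replicate 1 and knockout replicate 2 the highest. The difference was -1.90 in wild-type cells (SE 0.20, limma adjusted p = 4.4e-06) and -2.34 in knockout cells (SE 0.17, limma adjusted p = 1.4e-07). Of the other 3 probe sets of Mxd4, 1434379_at (-1.40 and -1.53) and 1422574_at (-1.11 and -1.36) fell in both genotypes, whereas 1422575_at changed by -0.04 in wild-type cells (limma adjusted p = 0.765 over all probe sets) and fell by 0.39 in knockout cells (limma adjusted p = 0.0012). Averaged over its 4 probe sets, Mxd4 changed by -1.11 and -1.40 and passed in both, so the size of the fall depends on the probe set read.

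Mxi1, which encodes another MXD repressor, stood at 8.47, 8.21 and 8.23 in wild-type naive and at 8.18, 8.20 and 8.03 in knockout naive arrays. Activated arrays were at 7.73 and 7.59 in wild-type cells, against 7.33, 7.40 and 7.23 in those of the knockout. Every activated array lay below every naive array. The change was -0.64 (SE 0.10, limma adjusted p = 1.5e-04) in wild-type and -0.82 (SE 0.09, limma adjusted p = 4.5e-06) in knockout cells. The dimmer probe set 1425732_a_at lay between 6.07 and 6.27 in naive arrays and changed by -0.02 and -0.18, with neither passing (limma adjusted p = 0.882 and 0.059 over all probe sets), and the mean of both probe sets changed by -0.33 and -0.50 and passed.

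Mxd3, an MXD gene known for expression in dividing precursor cells, gave unlike answers by probe set. Its brightest probe set, 1438847_at, lay between 7.00 and 7.31 in naive and between 7.00 and 7.15 in activated arrays and changed by -0.10 in both genotypes (limma adjusted p = 0.441 in wild-type and 0.433 in knockout cells). The other 2 probe sets fell: 1422970_at by -0.35 and -0.44, and 1448878_at by -0.66 and -0.58 (limma adjusted p between 3.2e-04 and 0.0067 over all probe sets). The lowest of these, 1448878_at, lay between 4.54 and 4.83 in activated arrays, with 1 array under 4.57, the smallest of the arrays' lower quartiles. Its signal there is thus among the dimmest of the array, which leaves the size of that fall uncertain. With the 3 probe sets averaged, Mxd3 fell by 0.37 in each genotype.

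Mxd1, the founding MXD gene, stood at 8.38, 8.35 and 8.02 in wild-type naive and 8.02, 8.14 and 8.16 in knockout naive arrays. Its activated levels were 8.45 and 8.43 in wild-type arrays, against 7.96, 8.22 and 7.76 in those of the knockout. The change was 0.19 in wild-type cells (95% interval -0.10 to 0.48, limma adjusted p = 0.279) and -0.13 in knockout cells (-0.39 to 0.13, limma adjusted p = 0.438), so neither passed, although in wild-type cells both activated arrays lay above all naive ones. Of its dimmer probe sets, 1455104_at fell by 0.27 in knockout cells (limma adjusted p = 0.029 over all probe sets) and changed by 0.07 in wild-type cells, and 1422002_at passed in neither. Mxd4 was thus the MXD gene of largest fall by its brightest probe set in both genotypes.

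Mnt encodes the MAX partner that represses in most cell types, growing or not. Its levels were 9.13, 9.20 and 9.17 in wild-type naive, 9.35, 9.18 and 9.45 in knockout naive, 8.97 and 9.13 in wild-type activated and 9.03, 8.99 and 8.99 in knockout activated arrays. It changed by -0.12 in wild-type cells (limma adjusted p = 0.321) and fell by 0.32 in knockout cells (SE 0.08, limma adjusted p = 0.0041), but the difference between these changes was itself -0.21 with a limma adjusted p of 0.447. The dimmer probe set 1418193_at, between 5.26 and 5.56 in all arrays, changed by 0.06 and 0.03, and with both averaged the fall in knockout cells no longer passed (-0.15, limma adjusted p = 0.086).

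The MLX branch showed a fall in Mlxip. Its levels were 8.99, 8.99 and 8.86 in wild-type naive, 9.03, 8.81 and 8.89 in knockout naive, 8.27 and 8.59 in wild-type activated and 8.39, 8.51 and 8.57 in knockout activated arrays. All activated arrays lay below all naive ones, and the change was -0.52 (SE 0.11, limma adjusted p = 0.0014) in wild-type and -0.42 (SE 0.09, limma adjusted p = 0.0023) in knockout cells. The brightest probe set of Mlx lay between 8.76 and 8.90 in naive and between 8.53 and 8.83 in activated arrays and changed by -0.15 and -0.16 (limma adjusted p = 0.234 and 0.174). Without wild-type activated replicate 2, the higher of the pair at 8.83, Mlx changed by -0.30 in wild-type cells with a limma adjusted p of 0.034, and without wild-type activated replicate 1, at 8.53, it changed by -0.01 (limma adjusted p = 0.977). Its probe set 1425930_a_at changed by -0.01 and 0.07 and did not pass.

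**Figure D2:**
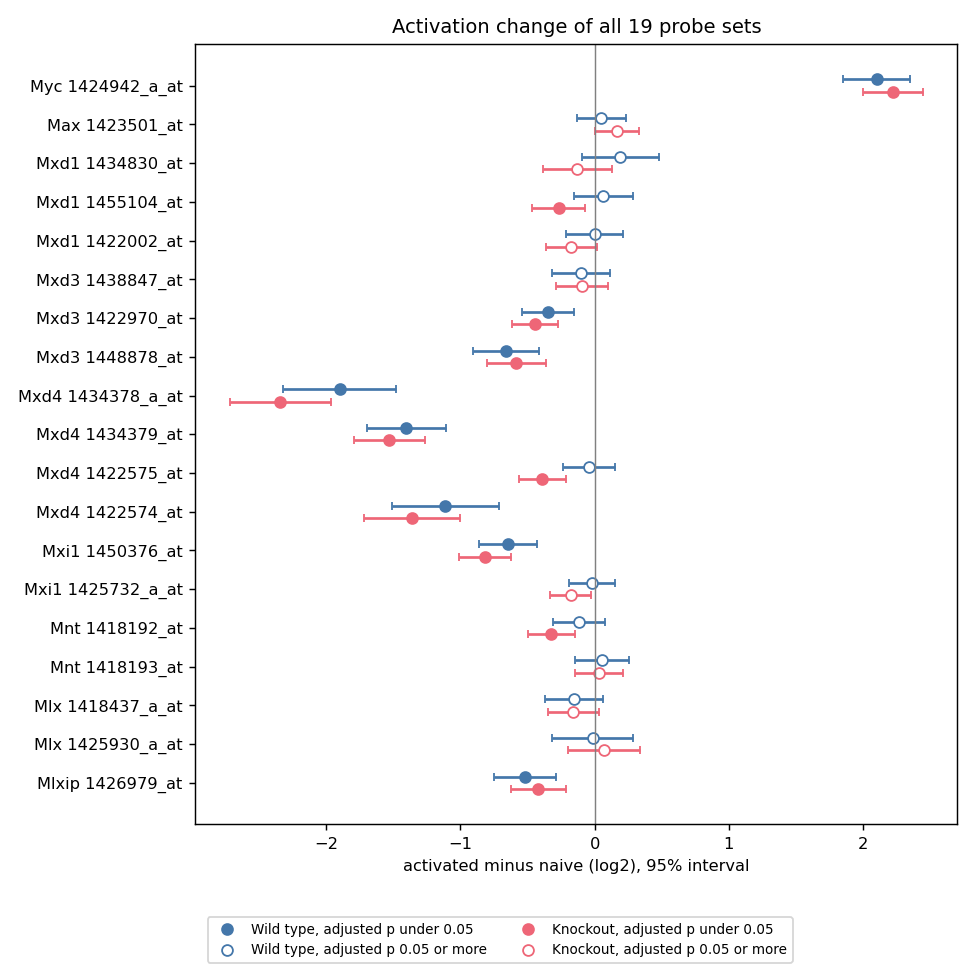
Activated minus naive difference in log2 (horizontal axis) for each of the 19 probe sets, with its 95% interval from limma without adjustment, in wild-type (blue) and knockout (red) cells; filled points had an adjusted p under 0.05 over all probe sets. Of the 19 probe sets 1 rose in each genotype, that of Myc, and 7 fell in wild-type and 10 in knockout cells, with Mxd4 1434378_a_at at -1.90 and -2.34.

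Counted by probe set, 1 rose and 7 fell of 19 in wild-type cells, where 37.8% of all probe sets with 1 symbol passed, and 1 rose and 10 fell in knockout cells, where 41.6% did. No gene had a probe set passing upward and another passing downward. Markers of other cells moved with activation too: the mean of the 6 B cell markers measured of 7 lay between 8.32 and 9.27 in naive and between 7.20 and 8.03 in activated arrays, and that of all 8 macrophage markers between 6.30 and 6.81 and between 5.73 and 5.95. Of these, 4 B cell and 5 macrophage markers fell in each genotype and 0 rose. For these and the next counts, 20.9% of all genes fell and 20.2% rose in wild-type cells, against 22.4% and 20.7% in knockout cells. All 4 plasma cell markers averaged between 9.66 and 10.08 in naive and between 8.11 and 8.44 in activated arrays, with 3 falling in each genotype. Of 7 neutrophil markers 2 fell in each genotype, of 4 NK cell markers 2 fell in wild-type and 3 in knockout cells with 1 rising in each, of 5 platelet markers 1 rose and 1 fell in knockout cells, and of 4 dendritic cell markers 2 fell in wild-type and 1 in knockout cells. The mean of the 8 T cell markers measured of 9 was lower as well, from 11.82 to 11.98 in naive and from 11.09 to 11.26 in activated arrays, with 6 falling in each genotype and 1 rising in wild-type cells. The part of these shifts in the falls of Mxd4, Mxi1 and Mlxip was not tested.

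The next comparison asked whether cells without cereblon differ from wild-type cells in the level of any network gene. In limma 0 of 9 members passed in naive cells (background 0.148% of genes), 0 of 9 in activated cells (0.0605%), 0 of 9 in the mean of both states (0.104%) and 0 of 9 in the interaction, the difference between the activation changes (0% of genes). At an unadjusted p under 0.05 there were 0 members in naive cells, where 14.5% of genes passed, 3 in activated cells (6.9% of genes), 2 in the mean of both states (7.13%) and 0 in the interaction (13.8%). By probe set, 0 of 19 passed in naive (background 0.157%) and 0 of 19 in activated cells (0.0629%), 0 of 19 in the mean (0.154%) and 0 of 19 in the interaction (0%). In activated cells the 3 members at an unadjusted p under 0.05 were the MXD genes Mxd1, Mxd4 and Mxi1. All 3 were lower in the knockout, as were 4.51% of genes at that unadjusted threshold. These 3 members did not pass after adjustment, and they are given as values.

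In activated cells Mxd1 was at 7.98 ± 0.23 (SD, n = 3) in the knockout and 8.44 ± 0.01 (SD, n = 2) in the wild type, a difference of -0.46 (95% interval -0.75 to -0.18, limma adjusted p = 0.418). Every knockout array lay below both wild-type arrays, as for 12% of all genes. Mxi1 was at 7.32 ± 0.09 (SD, n = 3) and 7.66 ± 0.11 (SD, n = 2), a difference of -0.34 (-0.55 to -0.12, limma adjusted p = 0.441), again without overlap. Mxd4 was at 6.74 ± 0.40 (SD, n = 3) and 7.23 ± 0.41 (SD, n = 2), a difference of -0.50 (-0.92 to -0.07, limma adjusted p = 0.644), with knockout replicate 2 at 7.20 between both wild-type arrays. Leaving out wild-type activated replicate 1 gave -0.21 for Mxd4, and leaving out wild-type activated replicate 2 gave -0.79. This difference thus rests on which of these arrays is kept. Its interval also uses a spread estimated over all 4 groups, and naive Mxd4 arrays lay far closer together (SD 0.03 in wild-type and 0.07 in knockout cells). The interval thus does not reflect the spread of the activated arrays alone. By the other probe sets in activated cells, Mxd1 1455104_at was at -0.30, Mxi1 1425732_a_at at -0.22, and those of Mxd4 at -0.31 (1434379_at), -0.16 (1422575_at) and -0.33 (1422574_at), while Mxd1 1422002_at was at 0.00. Of the B cell and NK cell markers 0 of 6 and 0 of 4 passed between these groups. The B cell mean lay between 7.20 and 7.63 in wild-type and between 7.61 and 8.03 in knockout activated arrays, and the NK cell mean between 6.49 and 6.55 and between 6.66 and 6.85. The part of these levels in the MXD values was not tested.

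In naive cells Mxi1 was also lower in every knockout array than in every wild-type array, by 0.16 in the group means (difference -0.16, 95% interval -0.36 to 0.03, limma adjusted p = 0.423). Max was placed likewise in naive cells (-0.14, -0.30 to 0.02, limma adjusted p = 0.407). In the same naive arrays the NK cell mean lay between 6.73 and 6.79 in wild-type and between 6.91 and 7.44 in knockout cells, with 1 of 4 markers, Klra8, higher (0.94, limma adjusted p = 0.038). The median difference was -1.65 over the 6 erythroid markers and -0.72 over the 11 proliferation genes, with 0 passing in either list. Their part in the naive values of Mxi1 and Max was not tested. Arrays did not overlap between genotypes in 20.4% of all genes in naive and 19.4% in activated cells, and 2 of 9 members did so in each state, which is near that share. By brightest probe set, Mxi1 was the member whose arrays separated in both states. It was lower in the knockout each time, as 0.594% of genes were. By this probe set its difference over the mean of both states was -0.25 (SE 0.07, limma adjusted p = 0.333). The dimmer probe set of Mxi1, 1425732_a_at, differed by -0.06 in naive cells with arrays overlapping, and by -0.22 in activated cells without overlap. Mxd1 lies on chromosome 6, as Crbn does, while Mxi1 and Mxd4 are on chromosomes 19 and 5. The part of chromosome position in these genotype differences was not tested.

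For Myc the genotype difference was 0.02 in naive cells (95% interval -0.20 to 0.24, limma adjusted p = 0.953) and 0.14 in activated cells (-0.11 to 0.39, limma adjusted p = 0.878). The Myc change on activation differed between genotypes by 0.12 (-0.22 to 0.45, limma adjusted p = 0.745). These intervals are without adjustment, and differences within them remain compatible with the 2 or 3 arrays per group. For Mxd4 the change differed by -0.44 (-1.01 to 0.13, limma adjusted p = 0.459), a wider interval. It was -0.15 without wild-type activated replicate 1 and -0.73 without wild-type activated replicate 2, and passed in neither. Protein levels were not measured here.

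**Figure D3:**
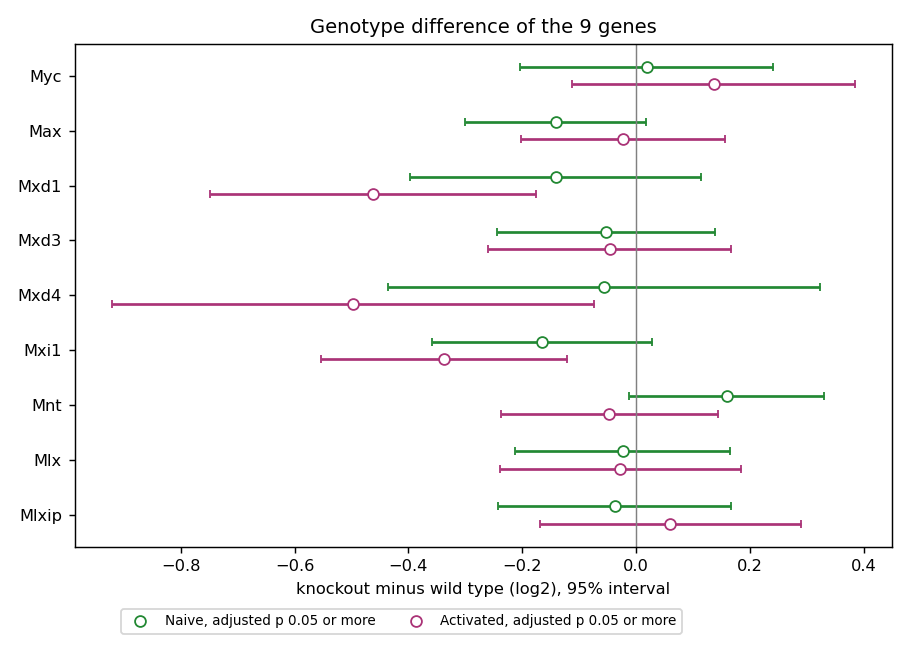
Knockout minus wild-type difference in log2 (horizontal axis) for each of the 9 genes, with its 95% interval from limma without adjustment, in naive (green) and activated (purple) cells; open points had an adjusted p of 0.05 or more. All 18 points are open, and the intervals that lie wholly below 0 are those of Mxd1, Mxd4 and Mxi1 in activated cells. Each interval uses a spread estimated over all 4 groups.

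Genes that MYC is known to activate rose almost throughout. Of 29 measured of 32 such genes, chosen with earlier results of these data known, 28 rose and 0 fell in each genotype in limma, where 20.2% of all genes rose in wild-type and 20.7% in knockout cells. Their median change was 1.13 in wild-type and 1.38 in knockout cells, against 0.06 and -0.03 over all genes. Hk2, the hexokinase of growing cells, rose by 2.87 and 3.27. Its levels were 7.37, 6.80 and 6.94 in wild-type naive and 9.65 and 10.16 in wild-type activated arrays. The spermidine synthase gene Srm rose by 2.16 and 2.59, the nucleolar chaperone gene Nolc1 by 1.89 and 2.25, and Pa2g4 by 1.81 and 2.04. Tert, the telomerase gene, was the member that did not pass (0.17 and 0.05, limma adjusted p = 0.361 and 0.779). Its signal was dim, between 5.27 and 5.74 in all arrays, under the lowest column median of 5.84. None of the 29 passed between genotypes. CACGTG stood in a promoter window of 5 of the 24 genes of this list with an entry (Apex1, Cdk4, Eif4e, Ldha and Nme1), and in that of 8.09% of all genes.

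Genes reported as repressed by MYC moved in both directions. Of 7, 4 fell and 2 rose in each genotype. In wild-type cells 20.9% of all genes fell and 20.2% rose, against 22.4% and 20.7% in knockout cells. The stress gene Gadd45a fell furthest, from a mean of 8.86 in wild-type naive to 5.37 in wild-type activated arrays (-3.49, and -3.20 in knockout cells). Cdkn1b, which encodes the cell cycle inhibitor p27, fell too (-1.84 and -2.24), and Cdkn2c changed by -1.01 and -0.84. Cdkn1a, which encodes the inhibitor p21, rose by 1.17 and 1.25.

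Of the 5 genes listed as targets of MondoA and MLX, 2 fell and 0 rose in both genotypes. Among all genes 20.9% fell and 20.2% rose in wild-type cells, against 22.4% and 20.7% in knockout cells. Txnip, the glucose-responsive inhibitor of glucose uptake and a classical MondoA target, lay between 11.54 and 11.84 in naive and between 8.59 and 9.06 in activated arrays and changed by -2.80 and -2.98. Klf10 changed by -1.68 and -1.10. Arrdc4, another gene that MondoA is known to induce, changed by -0.12 and 0.04 and did not pass. The median of the list was -0.12 in wild-type and 0.03 in knockout cells.

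**Figure D4:**
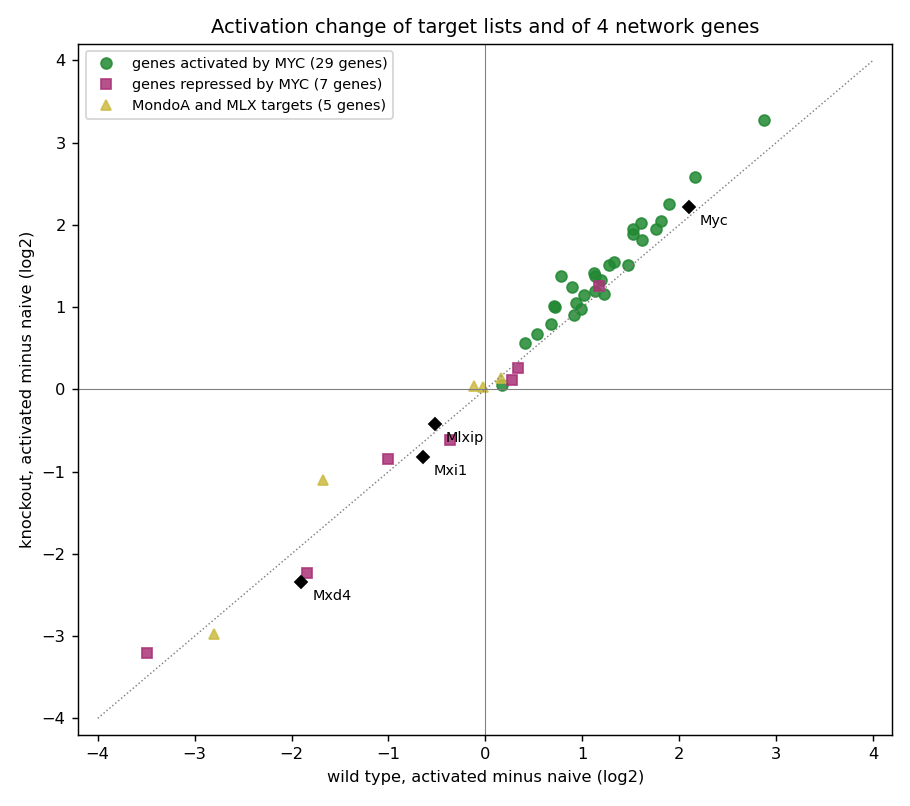
Activated minus naive difference in log2 in wild-type (horizontal axis) and knockout cells (vertical axis) for genes activated by MYC (green circles), repressed by MYC (purple squares) and targets of MondoA and MLX (yellow triangles), with Myc, Mxd4, Mxi1 and Mlxip as black diamonds; the dotted line marks equal change. All 29 genes activated by MYC lie above 0 on both axes, with 28 passing in each genotype, and Txnip lies at -2.80 and -2.98.

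Cofactors of the network were split. The background for their counts is that 20.2% of all genes rose and 20.9% fell in wild-type cells, against 20.7% and 22.4% in knockout cells. Of 13 MYC coactivators measured of 14, 5 rose and 4 fell in wild-type and 6 rose and 4 fell in knockout cells (median 0.14 and 0.19). The ATPase pair Ruvbl1 (1.83 and 2.20) and Ruvbl2 (1.36 and 1.70) rose, whereas the histone acetyltransferase genes Ep300 (-0.95 and -0.75) and Crebbp (-0.75 and -0.71) fell. Of 13 corepressor genes of MXD and MNT measured of 16, 3 rose and 5 fell in wild-type and 3 rose and 6 fell in knockout cells (median -0.15 and -0.17). Arid4a (-1.05 and -0.93), Arid4b (-0.78 and -0.89) and Ing2 (-0.92 and -0.77), all subunits of SIN3 complexes, fell, and Sap30, another such subunit, rose by 0.74 and 1.20. The scaffold gene Sin3a changed by -0.15 and -0.17 and passed in neither (limma adjusted p = 0.161 and 0.076).

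Genes acting on the turnover of the MYC protein also moved both ways, 3 up and 6 down of 12 measured in wild-type cells, where 20.2% of all genes rose and 20.9% fell. In knockout cells 5 rose and 5 fell, where 20.7% and 22.4% of all genes did. The deubiquitinase gene Usp28 changed by -1.07 and -1.18, the kinase gene Gsk3b by -0.79 and -0.78 and the F-box gene Fbxo32 by -0.77 and -0.88. Aurka fell in wild-type cells (-0.69) and did not pass in knockout cells (-0.05, limma adjusted p = 0.860). Fbxw7, the F-box protein that marks phosphorylated MYC for destruction and a gene chosen here after its values were seen, rose by 0.50 and 0.48.

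The remaining relatives of the network included both other MYC genes. Mycl fell in wild-type cells (-0.58, limma adjusted p = 0.033) and did not pass in knockout cells (-0.45, limma adjusted p = 0.061), and Mycn, named after its values were seen, changed by 0.26 and 0.23 without passing (limma adjusted p = 0.089 and 0.087). Mycbp, a MYC-binding protein gene, rose by 0.81 in wild-type cells and from a mean of 7.36 to 8.86 in knockout cells, and Mycbp2 fell (-0.73 and -0.74). Mga, whose large protein also pairs with MAX, fell in wild-type cells (-0.34, limma adjusted p = 0.033) and was at -0.04 in knockout cells. In all 1 rose and 3 fell of 6 in wild-type cells (20.2% and 20.9% of all genes), and 1 rose and 1 fell in knockout cells (20.7% and 22.4%). The wild-type counts are not firm, since over the alternative settings from 1 to 3 rose and from 1 to 3 fell. Whether the changes of Mycl and Mga differ between genotypes is not shown by these counts.

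The proliferation list moved both ways, with 7 of 11 measured genes falling and 3 rising in wild-type cells (median -1.02). In knockout cells 2 fell and 3 rose (median -0.38). Over all genes 20.9% fell and 20.2% rose in wild-type cells, against 22.4% and 20.7% in knockout cells. The risers were genes of DNA replication, Mcm2 (0.78 and 1.24), Mcm5 (0.85 and 1.26) and Pcna (0.30 and 0.50). Mki67 changed by -2.29 and -1.67, Birc5 by -1.72 and -1.29, Rrm2 by -1.57 and -0.50 and Bub1 by -1.43 and -0.38. Rrm2 and Bub1 did not pass in knockout cells (limma adjusted p = 0.211 and 0.389), and a difference between genotypes is not shown by this, since 0 genes passed in the interaction. Of 6 erythroid markers 3 fell in wild-type (median -2.10) and 1 in knockout cells (median -0.66), 0 rose in either, and the others did not pass. Their mean level lay between 7.45 and 9.23 in wild-type naive, between 6.38 and 7.93 in knockout naive and between 5.99 and 6.87 in activated arrays. The part of erythroid cells in the levels of proliferation genes was not tested.

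The genes most like a member in pattern were found by Pearson correlation of levels over the 11 arrays, among 18193 other genes. Since 1742 genes had r over 0.95 with Myc and 1561 with Mxd4, and activation sets most of this likeness, the values are a description. Nearest to Myc were Mir155hg (r = 0.998), the host gene of microRNA-155, and Pfdn2, Utp18, Ssb and Nip7 (r = 0.997 each). Nearest to Mxd4 were Tcp11l2 (r = 0.997), which changed by -2.11 and -2.48, and Ctps2, Ip6k1, Tuba1a and Itm2b (r at least 0.996). For the brightest probe set of Mxd3, the nearest gene, 3632454L22Rik, had r = 0.922, and 0 genes had r over 0.95.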

How the data were processed

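RNA of 11 samples (100 ng each, biotin label) was hybridised to one-colour mouse arrays. Per the submitters' processing notes, GCOS, RMA and Partek were used; no version or setting is given in the sources used here. Starting values were the deposited log2 levels of 45101 probe sets, with 0 missing. The platform annotation gave 34958 probe sets 1 symbol, 932 several and 9211 none; 0 symbols changed when matched by Entrez number to a GRCm38.p6 gene table. Where a gene had several probe sets, the brightest on average stood for it (18194 genes); a second fit used all 34958 probe sets.

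Group means were compared with limma 3.58.1 in R 4.3.3 over all 11 arrays (prior degrees of freedom 5.46, residual 7), with Benjamini-Hochberg adjustment over all genes or probe sets and a threshold of 0.05, for 6 comparisons. P-values set a difference of group means against the spread between samples within groups. For each gene or probe set that spread is a shared estimate over all groups, moderated across genes or probe sets. The fit was tested on simulated data. Motifs were counted with Python 3.11.15 and figures drawn with matplotlib 3.10.9.

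Named were all members, Crbn, of each of 8 gene lists up to 4 members of largest wild-type activation change past the threshold, and for Myc, Mxd4 and Mxd3 the 5 genes of highest Pearson r. Tert, Sin3a, Arrdc4, Fbxw7, Mycn, Mcm2, Mcm5, Pcna, Klra8, Cd3d, Ighm, Jchain, Car1, Pax5, Sdc1 and Epb42 were named after their values were seen. Of 162 genes on these and 9 marker lists 148 were measured, and the other 14 have no value here. Members and lists were chosen with earlier results of these data known. Alternatives were the mean of a gene's probe sets, all probe sets, genes above the median level, a variance trend with robust prior, only the compared arrays, array weights, quantile normalization again, median centring, the replicate number as a block, leaving out each array, and, chosen after seeing the data, leaving out both naive arrays numbered 1.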

Additional observations from a re-analysis of the deposited data

Results flagged for a closer look

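Mnt was the member for which all knockout arrays lay on 1 side of the wild-type mean in naive cells and on the other side in activated cells. Mlxip also had differences of opposite sign (-0.04 and 0.06), but its knockout arrays lay on both sides of the wild-type mean. For Mnt, every knockout naive array (9.35, 9.18 and 9.45) lay above the wild-type naive mean of 9.17, and every knockout activated array (9.03, 8.99 and 8.99) lay below the wild-type activated mean of 9.05. The difference between these effects was -0.21 log2 with a limma adjusted p of 0.447, so it did not pass. The activated difference, -0.05, is smaller than the spread of the wild-type pair (8.97 and 9.13). By the dimmer Mnt probe set, 1418193_at, knockout minus wild type was 0.03 in naive and 0.01 in activated cells, the same sign in both.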

How the results depend on the processing

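The number of members past the threshold stayed within 1.5 times the reported count under all 21 alternatives (20 for the mean and the interaction, which use all arrays anyway): 4 to 5 in wild-type activation, 5 to 6 in knockout activation, and 0 in the naive, activated, mean and interaction comparisons of genotype. With the replicate block the counts were 4 and 5 in activation and 0 in the others. Same-numbered arrays of different groups had correlations of deviations from -0.30 to 0.39, with 7 of 15 above 0.1, against -0.35 to 0.30 with 6 of 30 above 0.1 for arrays of different number. The 2 wild-type activated arrays deviate from their mean equally and oppositely. Their correlations, among them -0.30 and 0.30, therefore come in pairs of opposite sign. Without these 2 arrays, same-numbered arrays had -0.01 to 0.39 and arrays of different number -0.35 to 0.12. The labels state no pairs, so the reported fit used none, and the block served as an alternative. Whether same-numbered arrays share a source was not tested. Leaving out each array in turn gave 4 to 5 and 5 to 5. Myc ranged over the alternatives from 2.02 to 2.21 in wild-type and from 2.13 to 2.28 in knockout cells. Calls changed for 5 single values: with the probe sets averaged Mxd3 passed in both genotypes and Mnt in knockout cells did not, among genes above the median level Max passed in knockout cells (0.17, limma adjusted p = 0.047), and without wild-type activated replicate 2 Mlx passed in wild-type cells. No passing difference took the other sign; of 927 recomputed differences that did not pass in the reported fit 50 did. The count of MYC-activated genes that rose stayed between 27 and 28 in wild-type and at 28 in knockout cells, while the count of proliferation genes that fell ranged from 4 to 8 and from 2 to 5. In all, 39 recomputed list counts moved by over 1.5 times or to or from 0. In wild-type cells these included the extended network (3 fell, range 1 to 3, and 1 rose, range 1 to 3), genes repressed by MYC (2 rose, range 1 to 3), MondoA and MLX targets (0 rose, range 0 to 1) and MYC turnover (3 rose, range 3 to 5). In knockout cells they included the extended network (1 fell and 1 rose, each with range 1 to 2), genes repressed by MYC (2 rose, range 1 to 2), MondoA and MLX targets (0 rose, range 0 to 1) and MYC turnover (5 fell, range 3 to 6). Dim probe sets near 4.57 and the pair of wild-type activated arrays limit the precision.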
